A study of Mus musculus with 42 samples.

Results

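GM-CSF blockade and IL2RB blockade were given alone and together to mice that all received aPD1, which makes a 2 by 2 design in which the effect of each antibody can be read with and without the other. The tumors described here are the 37 of 42 in the series from the 4 groups given aPD1: 6 tumors with aPD1 alone, 9 with aPD1 + aGMCSF, 11 with aPD1 + aIL2RB and 11 with aPD1 + aGMCSF + aIL2RB. The 5 tumors given isotype control in place of aPD1 were left out. MC38, a mouse colon carcinoma line, was injected under the skin of female CC075/UncJ x C57BL/6J F1 mice (CC75×B6) aged 8 to 12 weeks. Blocking antibody (100 µg aGMCSF, 200 µg aIL2RB) or its isotype was dosed every 3 days from engraftment until tumors measured 75 to 110 mm3. Then 200 µg of aPD1 was injected once and the whole tumor was taken 48 hours later for poly(A) RNA-seq. All 37 mice therefore had the same host cross, the same tumor line and the same aPD1 dose, so no statement is made here about tumors without aPD1.

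PD-1 is an inhibitory receptor on T cells, and aPD1 releases T cells from it. IL2RB is the beta chain shared by the receptors for IL-2 and IL-15, cytokines on which cytotoxic T cells and NK cells depend. GM-CSF is a cytokine made by activated T cells and other cells that acts on monocytes, macrophages and granulocytes through a receptor made of CSF2RA and CSF2RB. Type I interferons induce antiviral genes through a transcription factor complex that binds the interferon-stimulated response element (ISRE), and IFN-γ, made by T and NK cells, induces MHC genes, guanylate-binding proteins and CXCL9.

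The question for each gene was whether the change with both antibodies equalled the sum of the changes with each alone. The interaction is (aPD1 + aGMCSF + aIL2RB minus aPD1 + aIL2RB) minus (aPD1 + aGMCSF minus aPD1), on the log2 scale, where 0 means that the fold changes of the single blockades multiply. A gene that falls with each antibody alone and falls less than the sum with both has an interaction above 0, and a gene that rises with each alone and rises less than the sum has one below 0. The 6 aPD1 tumors enter the interaction with one sign and both single effects with the opposite sign, so the signs and sizes of these values are not independent of each other. In whole tumors, fewer cells of a type and less RNA per cell cannot be told apart. Each profile is a separate tumor, so the p-values below measure the spread between tumors.

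Total counts ranged from 7155486 in 1 tumor (aPD1 + aGMCSF + aIL2RB replicate 4) to 24101674, and the next lowest was 15109227. The 5 ribosomal RNA genes took 2.86 to 17.9% of counts. The replicate numbers fall into 2 sets of 20 and 17 tumors whose profiles differed, here called the first set (aPD1 replicates 1 to 3, aPD1 + aGMCSF 1 to 5, aPD1 + aIL2RB 1 to 6 and aPD1 + aGMCSF + aIL2RB 1 to 6) and, for the higher numbers, the second set. Neither the labels nor the study's methods name what the sets are, and every group has tumors in both. Markers of MC38 as an epithelial line were low: 8 of 14 passed the filter on low counts, their summed level was 2.37 to 31.9 CPM (counts scaled to the same library total), and Krt20, Cldn4, Cldn7, Cdx2, Vil1 and Tff3 did not pass. Replicate 1 of the tumors given both antibodies had the highest leukocyte and antiviral levels of its group. Without it Cxcr3, Csf2rb2, Irf4, Igkc, Car3, Des and Ddit3, all described below as called, were not called (adjusted p = 0.0576 to 0.0926, edgeR).

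Of 16600 genes tested, 1331 (8.02%) had an interaction at an adjusted p under 0.05 (edgeR quasi-likelihood test with Benjamini-Hochberg adjustment). The interaction was above 0 in 831 (5.01%) and below 0 in 500 (3.01%), and 3913 genes had an unadjusted p under 0.05. Counts above 0 were 475 with the replicate number as a block, and counts below 0 were 877 as the mean of both sets described above. With scaling by library size alone the split was 620 above and 647 below 0, with the median over all genes shifted to -0.05 from 0.000341. Every called gene lay short of the additive expectation. In the 831 genes with an interaction above 0, the median change was -0.73 with aGMCSF alone and -0.87 with aIL2RB alone, the median of the sums was -1.64, and the median change observed with both was -0.73. In the 500 genes below 0, the medians were 0.27 and 0.33 for the single antibodies, 0.60 for the sum and 0.26 for both together. These medians describe genes that were called for their interaction.

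No gene changed beyond the additive expectation at the threshold. Of the 1397 genes whose combined change exceeded the sum of 2 single changes of the same sign, 0 were called and 0 had an unadjusted p under 0.05 (edgeR). The shared aPD1 tumors tie the interaction to single effects of the opposite sign, which makes low p-values in this class unlikely by construction, so its counts are a description. Among the 2814 genes whose single effects had opposite signs, 38 had an unadjusted p under 0.05 and 0 were called. The smallest p of these were those of Tecpr2 (interaction 0.24, adjusted p = 0.0557, edgeR) and Fdps, an enzyme of cholesterol synthesis (-0.38, adjusted p = 0.0614). Cd163, a scavenger receptor of macrophages, had single effects of -0.80 with aGMCSF and 0.15 with aIL2RB and an interaction of 0.98 (adjusted p = 0.0925, edgeR).

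**Figure D1:**
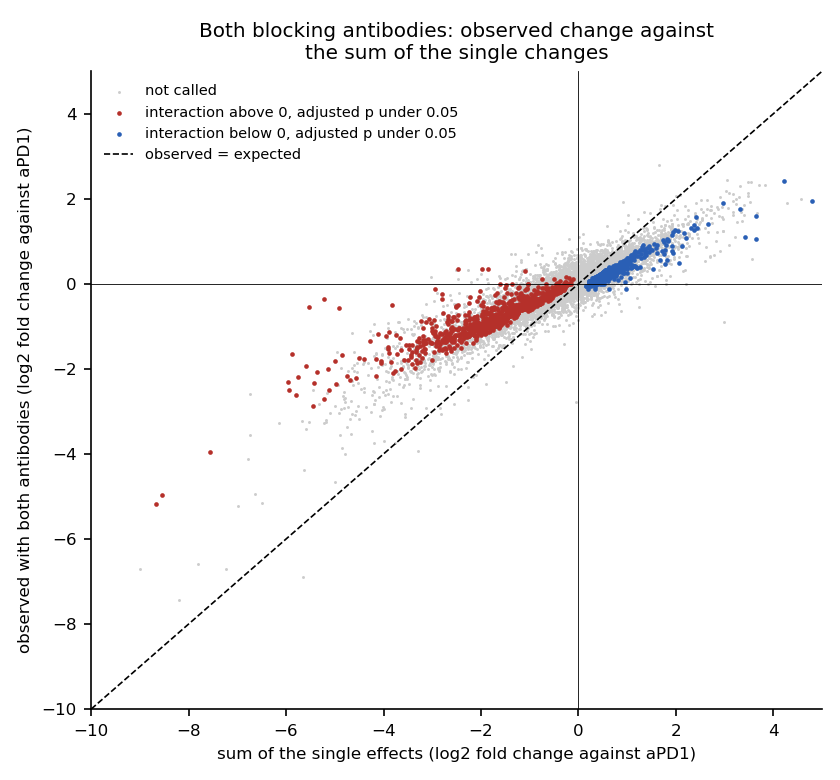
Observed log2 change with both antibodies against aPD1 alone (y axis) plotted against the sum of the 2 single log2 changes (x axis), 1 point for each of 16600 genes. Called genes lie off the dashed line of equal values, 831 above it with a sum below 0 (red) and 500 under it with a sum above 0 (blue), and 9 genes lie outside the axes.

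Each antibody changed fewer genes in the presence of the other. GM-CSF blockade without aIL2RB changed 2220 genes (13.4%), 787 up and 1433 down. With aIL2RB present it changed 0 (0%) by edgeR, where 1226 genes had an unadjusted p under 0.05, and DESeq2 called 2. IL2RB blockade without aGMCSF changed 4612 genes (27.8%), and with aGMCSF present 329 (1.98%). Both antibodies against aPD1 alone changed 4593 genes (27.7%). Within the first and the second set, GM-CSF blockade without aIL2RB changed 71 and 2855 genes, and IL2RB blockade with aGMCSF changed 69 and 1308. The count for GM-CSF blockade without aIL2RB fell to 1130 without aPD1 replicate 4, and the count of 329 was 584 with DESeq2, 840 with a term for the set and 978 with the replicate block, and moved by more than 1.5 times without each of 8 tumors, from 184 without aPD1 + aGMCSF replicate 7 to 756 without aPD1 + aGMCSF + aIL2RB replicate 1.

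The size of the called set depended on single tumors. Leaving out each tumor in turn gave 350 to 1143 genes above 0 and 164 to 692 below 0. The lowest counts came without aPD1 replicate 4 and the highest without aPD1 replicate 2. The count above 0 was 538 without aPD1 replicate 6. The count below 0 was 265 without aPD1 + aGMCSF + aIL2RB replicate 1, 330 without aPD1 + aIL2RB replicate 1, and 316 without each of aPD1 replicate 5 and aPD1 + aGMCSF replicates 3 and 7. Of the 1331 calls, 512 remained without aPD1 replicate 4 and 885 without aPD1 + aGMCSF + aIL2RB replicate 1, and in each of the 37 fits every one of them that was still tested kept its sign, which describes genes chosen in these same tumors and is no measure of stability.

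**Figure D2:**
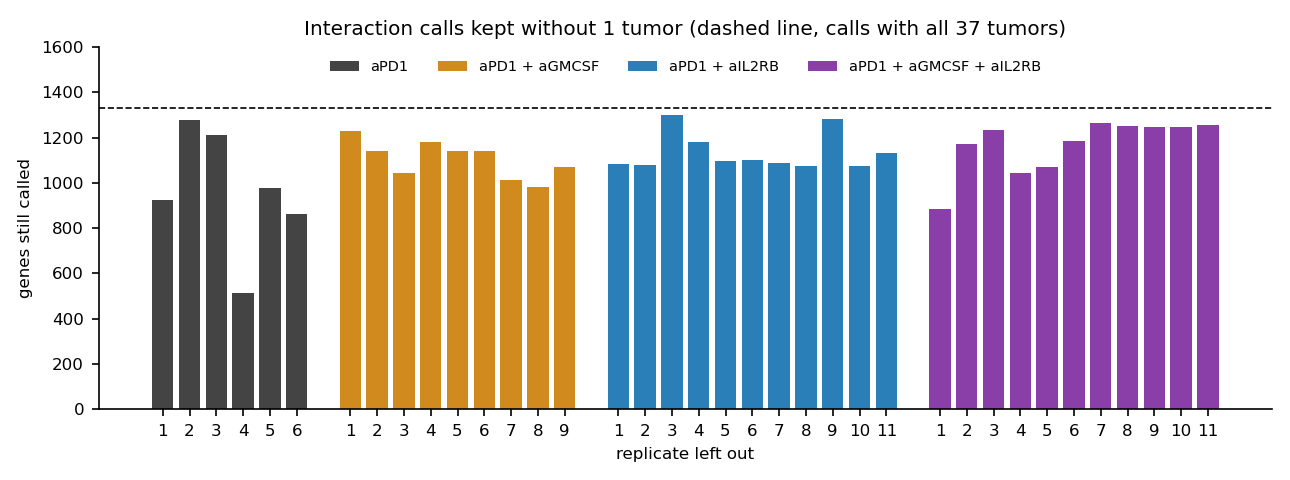
Number of the 1331 interaction calls (y axis, dashed line at 1331) that were still called when each of the 37 tumors was left out in turn, 1 bar for each tumor by its replicate number (x axis), coloured by its group. The lowest bars are 512 without aPD1 replicate 4 and 860 without aPD1 replicate 6, and the highest is 1298 without aPD1 + aIL2RB replicate 3.

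Of 30 antiviral interferon-stimulated genes, 25 had an interaction above 0 against 5.01% of all genes, and 0 were below. Their median interaction was 1.10 against 0.000341 over all genes, from a median sum of -1.67 and a median combined change of -0.56. Leaving out each tumor gave 22 to 27 called members. The median was 0.68 in the first set, where 0 were called against 2.05% of all genes, and 1.36 in the second set, where 24 were called against 6.82%.

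Irf7, the transcription factor that amplifies type I interferon, had 52.3, 120.5 and 198 CPM as its lowest, median and highest in the aPD1 tumors. With aPD1 + aGMCSF these were 28.5, 39.3 and 52.5 CPM, with aPD1 + aIL2RB 29.7, 40.3 and 65.6, and with both 39.1, 44.3 and 131. Of the 31 tumors given a blocking antibody, 6 reached the lowest aPD1 tumor, and the highest of them was aPD1 + aGMCSF + aIL2RB replicate 1. The single changes of Irf7 were -1.53 and -1.41, the combined change was -1.11 against a sum of -2.95, and the interaction was 1.84 ± 0.32 (SE, adjusted p = 0.00137, edgeR).

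Other called members covered sensing, effector and regulatory steps. The GTPase gene Mx1 had an interaction of 1.75 ± 0.30 (adjusted p = 0.00123, edgeR), at 0.93 in the first set and 2.47 in the second. Oasl1 of the oligoadenylate synthetase family had 1.75 ± 0.31 (adjusted p = 0.00137) and Ifit2, which binds viral RNA and restrains translation, 1.21 ± 0.21 (adjusted p = 0.00137). The cytosolic RNA sensor Ifih1 had 0.76, the ubiquitin-like modifier Isg15 1.10, its protease Usp18 1.25 and the antiviral enzyme Rsad2 0.96. The 5 members not called were Irf9, Zbp1, Bst2, Ddx58 and Isg20, with interactions of 0.06 to 0.78. Ifit1bl1 had the largest interaction of the list at 2.63 ± 0.54 (adjusted p = 0.00364, edgeR), but 14 of 31 tumors given a blocking antibody reached its lowest aPD1 value of 2.41 CPM. Ifit1bl1, Ifit3 and Ifit3b, and Oas1a and Oas1g, have near-identical copies among which the authors' expected counts could divide reads, so values of single copies are uncertain.

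Genes outside this list with the same pattern included Ifi213, of the interferon-inducible p200 family, and Slfn1, of the Schlafen family. Ifi213 had 15.9, 39.97 and 54.6 CPM as lowest, median and highest in the aPD1 tumors. It had 8.19, 11.9 and 19.7 CPM with aPD1 + aGMCSF, 8.13, 9.45 and 19.7 with aPD1 + aIL2RB, and 8.44, 13.3 and 34.5 with both. Of the 31 other tumors, 5 overlapped the aPD1 range. The single changes of Ifi213 were -1.64 and -1.67, the combined change was -1.33 and the interaction was 1.97 ± 0.33 (adjusted p = 0.00117, edgeR). Slfn1 fell by 1.99 with aGMCSF, by 1.89 with aIL2RB and by 1.63 with both, an interaction of 2.26 ± 0.43 (adjusted p = 0.00222), and 3 of 31 tumors overlapped its aPD1 range. The calls of Ifi213 and Slfn1 held in every fit that left out a tumor and in each alternative listed in the closing section.

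**Figure D3:**
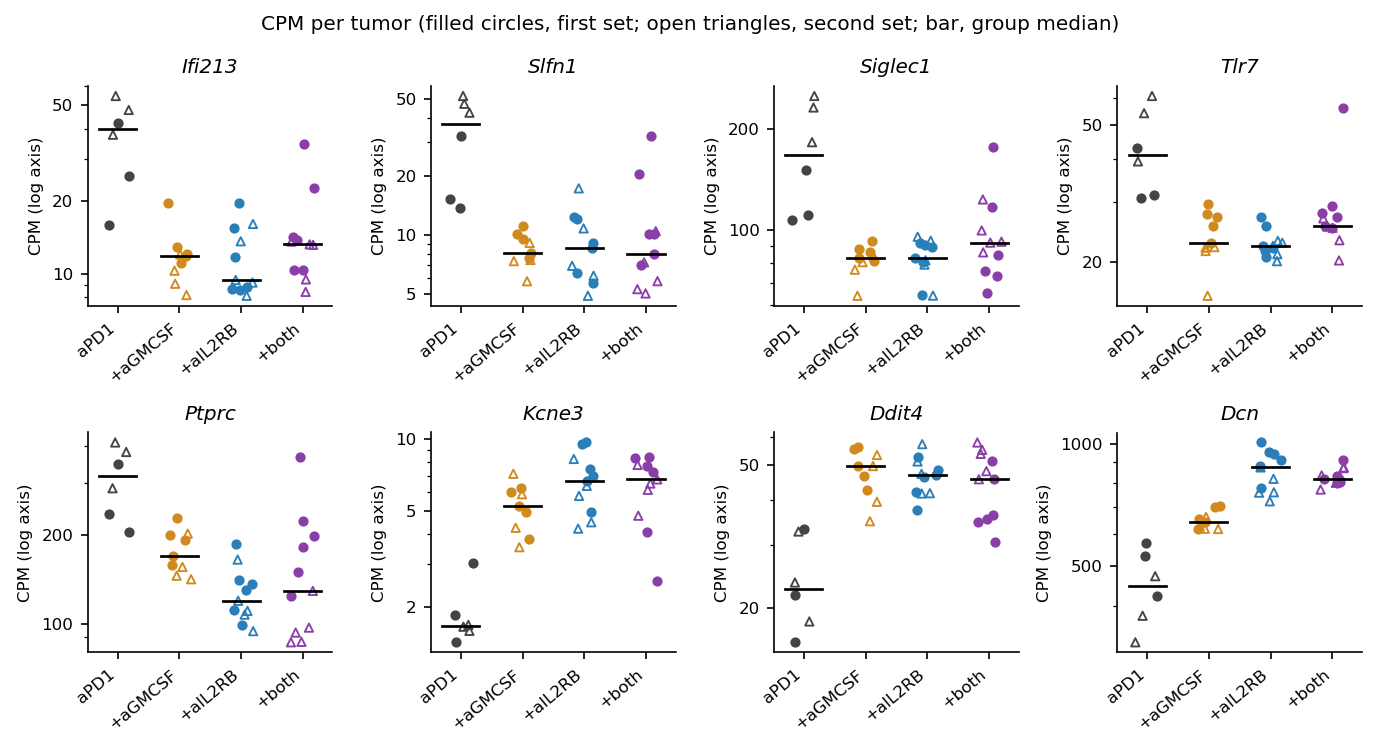
CPM of 8 genes (y axes on a log scale) in each of the 37 tumors by group, with filled circles for the first set, open triangles for the second and a bar at the group median. The medians of the 3 groups given a blocking antibody lie below that of the aPD1 tumors for Ifi213, Slfn1, Siglec1, Tlr7 and Ptprc and above it for Kcne3, Ddit4 and Dcn, and no tumor overlaps the aPD1 range for Dcn.

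The promoters below show the stretch before the start site of members whose interaction was among those of smallest p and that hold the letters of a motif there; they were chosen after their values were seen. The windows are RefSeq sequence on GRCm38.p6, 250 bases before the start site, 5′ to 3′ on the gene's strand. Capitals mark the ISRE core GAAANNGAAA on either strand (TTTCNNTTTC when on the other strand) in Ifi213 (chr1:173599273-173599522, minus strand), Ifit3 (chr19:34583279-34583528, plus strand) and Oas1a (chr5:120907526-120907775, minus strand, 2 overlapping matches).
Ifi213: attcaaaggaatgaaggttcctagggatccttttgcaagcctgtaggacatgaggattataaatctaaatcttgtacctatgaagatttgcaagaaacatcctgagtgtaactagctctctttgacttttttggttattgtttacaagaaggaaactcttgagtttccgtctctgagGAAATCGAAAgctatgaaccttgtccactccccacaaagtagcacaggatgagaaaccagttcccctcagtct
Ifit3: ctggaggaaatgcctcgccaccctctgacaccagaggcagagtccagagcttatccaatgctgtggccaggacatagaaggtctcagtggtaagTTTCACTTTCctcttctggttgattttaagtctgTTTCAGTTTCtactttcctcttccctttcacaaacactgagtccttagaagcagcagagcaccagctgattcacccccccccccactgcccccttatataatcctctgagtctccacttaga
Oas1a: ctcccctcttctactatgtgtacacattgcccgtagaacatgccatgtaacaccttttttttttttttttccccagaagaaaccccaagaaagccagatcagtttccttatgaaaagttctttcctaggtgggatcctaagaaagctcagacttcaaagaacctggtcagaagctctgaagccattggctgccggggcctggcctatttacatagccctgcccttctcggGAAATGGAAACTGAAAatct

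In windows of 300 bases, from 250 before to 50 after the start site, the ISRE core occurred in 14 of the 23 antiviral genes with a window (60.9%), in 68 of 627 genes with an interaction above 0 (10.8%), in 18 of 367 below 0 (4.9%) and in 3.97% of all 11309 tested genes with a window. These are matches of letters in these windows and not measured binding. Irf7, Ifit2 and Oasl1, given above with their values, had no match in their windows.

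**Figure D4:**
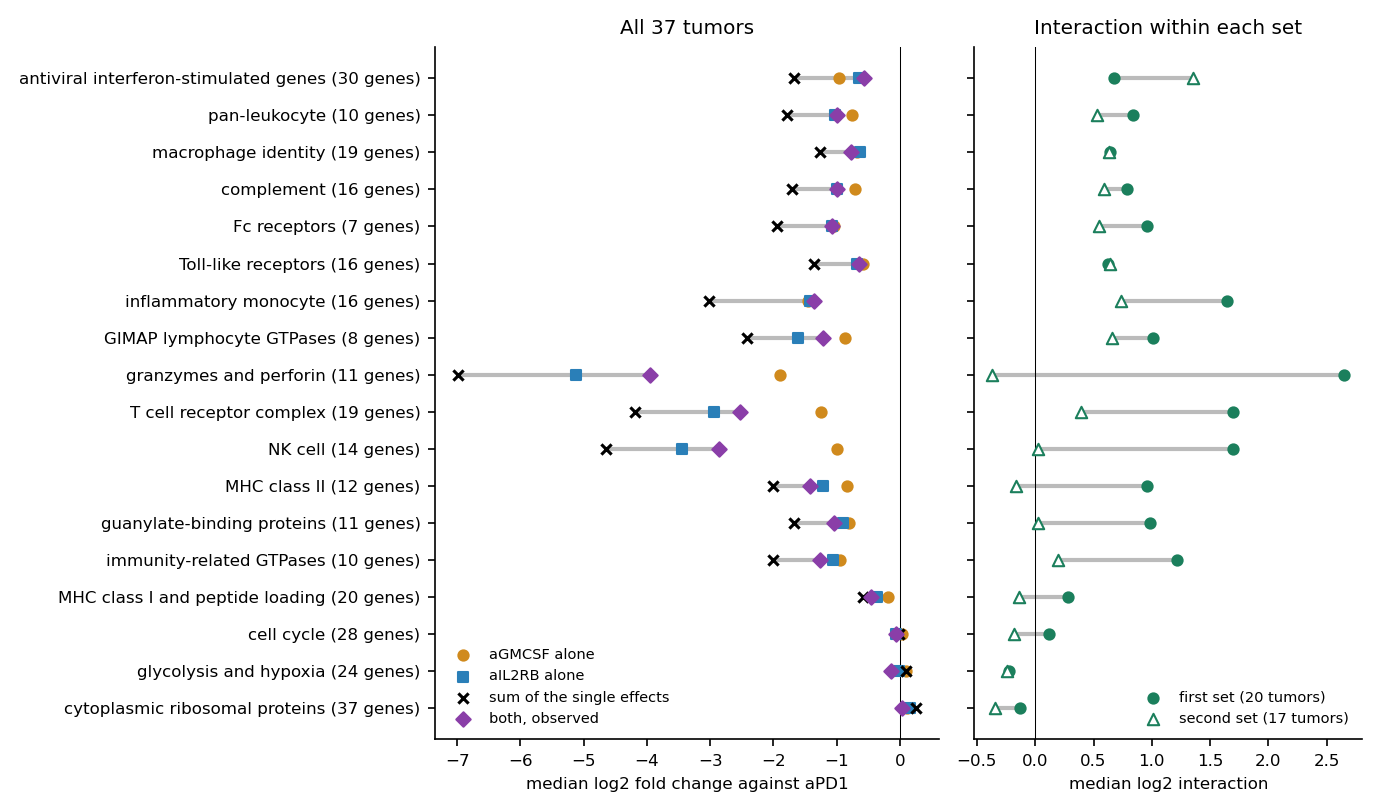
Left, median log2 fold change against aPD1 of 18 gene lists with aGMCSF alone (circles), with aIL2RB alone (squares), with both (diamonds) and as the sum of the single changes (crosses), where the grey line is the shortfall from the sum. Right, median log2 interaction of each list in the first set (filled circles) and the second set (open triangles), which for the antiviral genes were 0.68 and 1.36 and for the T cell receptor genes 1.70 and 0.40.

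Few targets of IFN-γ were called on the log2 scale. Among 11 guanylate-binding proteins 0 were called (edgeR), with a median interaction of 0.72, and among 10 immunity-related GTPases 0 were called, with a median of 0.82. Of 20 genes in the list of IFN-γ-induced chemokines and targets 2 were called against 5.01% of all genes. They were Jak1 (0.20) and Cxcr3 (2.35 ± 0.68, adjusted p = 0.0273, edgeR), a signaling kinase and a chemokine receptor. No induced chemokine of the list was called. The list had 0 called without aPD1 replicate 4, 1 without aPD1 replicate 1 or aPD1 + aGMCSF + aIL2RB replicate 1, and 7 without aPD1 + aIL2RB replicate 9. MHC class I and peptide loading genes had 0 of 20 called and a median of 0.10. MHC class II had 2 of 12 called, the lysosomal reductase Ifi30 (0.62) and the protease cathepsin S, Ctss (0.88), while H2-Aa had an interaction of 1.17 ± 0.63 (adjusted p = 0.264). Without aPD1 replicate 4, 1 MHC class II gene was called. On a linear scale (CPM divided by its mean over the 37 tumors, limma), where differences rather than fold changes add, 10 of the 20 IFN-γ-induced genes, 9 of the 12 MHC class II genes, 4 of the 11 guanylate-binding proteins, 3 of the 10 immunity-related GTPases and 1 of the 20 MHC class I genes were called above 0, against 7.52% of all genes and 26 of the 30 antiviral genes. CPM cannot fall below 0, so where the single falls add to more than the aPD1 level a linear interaction above 0 is fixed by the single effects. By the group means this held for 6 of these 10 IFN-γ-induced genes, 6 of the 9 MHC class II genes, all 4 guanylate-binding proteins, 2 of the 3 immunity-related GTPases, the 1 MHC class I gene and 7 of the 26 antiviral genes. Whether the antiviral genes differed from the IFN-γ targets was not tested.

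Cxcl9, the chemokine that draws CXCR3-bearing T cells, had 345, 461 and 593 CPM as lowest, median and highest with aPD1, and 107, 187 and 278 with aPD1 + aGMCSF. It had 42.1, 102 and 331 CPM with aPD1 + aIL2RB and 9.94, 78.2 and 401 with both. Only 1 of the 31 tumors given a blocking antibody, aPD1 + aGMCSF + aIL2RB replicate 1, reached the lowest aPD1 tumor. The single changes of Cxcl9 were -1.33 and -1.84, the combined change was -2.01, and the interaction of 1.17 ± 0.60 did not pass (adjusted p = 0.232, edgeR), with values of 1.92 in the first set and -0.60 in the second. Cxcl9 was called on the linear scale (adjusted p = 0.00435, limma), where its single falls add to more than its aPD1 level and fix the sign. Spp1, the macrophage gene for osteopontin, had an interaction of -0.14 ± 0.29 (adjusted p = 0.825), single changes of 0.01 and 0.33 and overlapping groups.

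Genes of the targeted pathways themselves were next. Il2rb, which encodes the antibody's target, had medians of 37.98 CPM with aPD1, 19.03 with aPD1 + aGMCSF, 3.07 with aPD1 + aIL2RB and 2.98 with both, and no tumor given a blocking antibody reached the lowest aPD1 tumor (30.4 CPM). Its interaction was 1.51 ± 0.69 (adjusted p = 0.168, edgeR), and its call on the linear scale (adjusted p = 0.00193, limma) has a sign that is fixed in the same way. Of 16 members of the IL-2 and IL-15 receptor list that were kept, 3 had an interaction above 0 against 5.01% of all genes: the common gamma chain Il2rg (1.06 ± 0.29, adjusted p = 0.0222), the signaling inhibitor Socs2 (1.15 ± 0.30, adjusted p = 0.017) and the kinase Jak1 (0.20 ± 0.06, adjusted p = 0.0232). The IL-2 receptor alpha chain Il2ra had 1.13 (adjusted p = 0.157, edgeR), and Il2 did not pass the filter. Without aPD1 replicate 4, 1 member was called.

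Among receptor genes of the GM-CSF and IL-3 list, Csf2rb2 had medians of 53.9 CPM with aPD1, 25.6 with aPD1 + aGMCSF, 25.9 with aPD1 + aIL2RB and 25.1 with both. Its interaction was 1.12 ± 0.35 (adjusted p = 0.0424, edgeR). The GM-CSF receptor chains named above, Csf2rb and Csf2ra, did not pass. Csf2rb, a near-identical copy of Csf2rb2, had 0.80 ± 0.27 (adjusted p = 0.0548, edgeR, and called under 7 alternatives). The alpha chain Csf2ra had 0.65 ± 0.24 (adjusted p = 0.0851). Reads of Csf2rb and Csf2rb2 could be divided between them. Of the 12 members of the GM-CSF and IL-3 list that were kept 3 were called against 5.01% of all genes, with the transcription factors Spi1 (0.66) and Irf4 (1.64) beside Csf2rb2. The call of Csf2rb2 was lost in 17 of the 37 fits that left out a tumor, and the list had 0 called without aPD1 replicate 4, 5 without aPD1 replicate 2 or aPD1 + aGMCSF + aIL2RB replicates 8 or 9, and 1 without each of 15 others. Csf2 itself did not pass the filter on low counts.

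Of 10 pan-leukocyte genes 9 were called above 0, against 5.01% of all genes, and the median was 0.71. All 10 were lower under each single blockade (against 8.63% of all genes under aGMCSF and 14.6% under aIL2RB). The count was 2 without aPD1 replicate 4 and 5 without aPD1 replicate 6. Ptprc, which encodes CD45 on all nucleated blood cells, had 205, 318 and 412 CPM as lowest, median and highest with aPD1, 142, 170 and 229 with aPD1 + aGMCSF, 94.5, 119.8 and 187 with aPD1 + aIL2RB, and 86.7, 129 and 367 with both. Of the 31 tumors given a blocking antibody 3 reached the lowest aPD1 tumor. The interaction of Ptprc was 1.12 ± 0.29 (adjusted p = 0.0152, edgeR), and it was 0.93 (adjusted p = 0.0168) without aPD1 + aGMCSF + aIL2RB replicate 1. The Ptprc call was lost with the replicate block (0.82, adjusted p = 0.05004) and in the second set alone (0.89, adjusted p = 0.0791). The summed level of the 10 genes was 1356 to 2342 CPM with aPD1, 995 to 1275 with aPD1 + aGMCSF, 746 to 1236 with aPD1 + aIL2RB and 661.5 to 1742 with both. The part of the number of leukocytes in the results for single leukocyte genes was not tested.

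Macrophage genes followed. Of 19 macrophage identity genes 10 were called above 0 against 5.01% of all genes, with a median of 0.68, and 6 were called without aPD1 replicate 4. Siglec1, a lectin of resident and interferon-exposed macrophages, had 107, 167 and 251 CPM as lowest, median and highest with aPD1, 63.9, 82.6 and 92.9 with aPD1 + aGMCSF, 64.0, 82.6 and 95.8 with aPD1 + aIL2RB, and 65.3, 92.0 and 176 with both. The 3 of 31 tumors that overlapped the aPD1 range were all given both antibodies. The single changes of Siglec1 were -1.08 and -1.06, the combined change was -0.81 and the interaction was 1.33 ± 0.21 (adjusted p = 0.00117, edgeR). Adgre1, which encodes F4/80, had 0.82 ± 0.19 (adjusted p = 0.00836), the lysosomal glycoprotein gene Cd68 0.77 ± 0.17 (adjusted p = 0.00664) and the high-affinity IgG receptor gene Fcgr1 1.15 ± 0.27 (adjusted p = 0.00941).

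Of 16 Toll-like receptor and adaptor genes 7 were called above 0 against 5.01% of all genes, with a median of 0.71. Tlr7, the endosomal sensor of single-stranded RNA, had 30.8, 41.1 and 60.9 CPM as lowest, median and highest with aPD1, 15.98, 22.8 and 29.6 with aPD1 + aGMCSF, 20.15, 22.3 and 27.2 with aPD1 + aIL2RB, and 20.25, 25.6 and 56.3 with both. Only aPD1 + aGMCSF + aIL2RB replicate 1 reached the aPD1 range. The interaction of Tlr7 was 1.19 ± 0.20 (adjusted p = 0.00117, edgeR), of Tlr8 1.45 ± 0.29 (adjusted p = 0.00305), and of Tlr2, which senses bacterial lipoproteins, 0.60 ± 0.13 (adjusted p = 0.00714). Of 7 Fc receptor genes 5 were called, with a median of 0.85, and 2 of them without aPD1 replicate 4. Syk, the kinase downstream of activating Fc receptors, had 1.19 ± 0.26 (adjusted p = 0.00539).

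The called complement, lipid-handling and monocyte genes lay above 0 except Fn1. Of 16 complement genes 8 were called above 0 against 5.01% of all genes, with a median of 0.79, and 4 without aPD1 replicate 4. Cfb, factor B of the alternative pathway, had medians of 198 CPM with aPD1, 59.5 with aPD1 + aGMCSF, 48.3 with aPD1 + aIL2RB and 48.6 with both, and an interaction of 1.64 ± 0.39 (adjusted p = 0.00948, edgeR). C3, the central component, had 1.58 ± 0.42 (adjusted p = 0.0168) and the anaphylatoxin receptor C3ar1 0.86 ± 0.21 (adjusted p = 0.0119). Of 16 genes of lipid-handling macrophages 6 were called, among them the cholesterol exporter Abcg1 (1.62 ± 0.35, adjusted p = 0.00509) and the fatty acid binding protein Fabp5 (0.84 ± 0.18, adjusted p = 0.00478), and 10 were called without aPD1 + aIL2RB replicate 9. Of 16 inflammatory monocyte genes 6 were above 0, among them Ms4a4c (1.53), the matricellular protein Thbs1 (1.42) and the C-type lectin Clec4d (1.83), and 1 was below, fibronectin Fn1 (-0.42). Without aPD1 replicate 4, 2 were above 0.

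Genes of the T cell receptor complex had large single effects, and few of them or of the NK cell genes were called on the log2 scale. For the 19 genes of the T cell receptor complex the median single changes were -1.25 with aGMCSF and -2.94 with aIL2RB, the median combined change was -2.53 and the median interaction was 1.64, with 1 called (5.26% of the list against 5.01% of all genes), Thy1 (1.19 ± 0.32, adjusted p = 0.0193, edgeR). Their count was 0 without aPD1 replicate 4 and up to 10 without aPD1 + aIL2RB replicate 3, and it was 2 to 5 without aPD1 replicates 2 or 3, aPD1 + aGMCSF replicate 4 or aPD1 + aGMCSF + aIL2RB replicates 7, 8, 9, 10 or 11. Cd8a had 2.21 ± 0.75 (adjusted p = 0.0583, and 0.0271 with set as a term) and Cd3e 1.49 ± 0.70 (adjusted p = 0.187). Of 14 NK cell genes 0 were called (edgeR), with a median of 1.34. On the linear scale (limma) 17 of the 19 T cell receptor genes, 8 of the 14 NK cell genes and 10 of the 11 granzyme and perforin genes were called above 0, against 7.52% of all genes, and Cd8a was among them (adjusted p = 0.00297). The single falls added to more than the aPD1 level in all 17 and all 10 of these T cell receptor and granzyme and perforin genes and in 7 of the 8 NK cell genes, so the sign of these linear calls is fixed and adds nothing to the log2 result. The set medians were 1.70 and 0.40 for the T cell receptor genes and 1.69 and 0.02 for the NK cell genes.

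Of 11 granzyme and perforin genes 5 were called above 0 on the log2 scale, against 5.01% of all genes. Gzmd had 5.24, 23.98 and 87.3 CPM as lowest, median and highest with aPD1, 0.738, 6.51 and 12.03 with aPD1 + aGMCSF, 0, 0.284 and 2.02 with aPD1 + aIL2RB, and 0, 1.12 and 3.77 with both. All 22 tumors given aIL2RB lay below the lowest aPD1 tumor, and 5 of the 9 given aGMCSF alone did not. The interaction of Gzmd was 3.60 ± 0.97 (adjusted p = 0.0188, edgeR). The Gzmd call was lost without aPD1 replicate 4 (3.08, adjusted p = 0.0689), with the replicate block (3.13, adjusted p = 0.0727), as the mean of both sets (2.47, adjusted p = 0.366) and in the second set alone (1.00, adjusted p = 0.873). The list had 0 called without aPD1 replicate 4, 2 without aPD1 + aGMCSF + aIL2RB replicate 1, 3 without its replicate 4, and 8 without aPD1 + aIL2RB replicate 3. Its median was 2.65 in the first set and -0.37 in the second, and the cytotoxic effector genes Gzmb (2.28, adjusted p = 0.0899) and Prf1 (2.55, adjusted p = 0.0617) did not pass. Granzymes D, E, F and G are near-identical neighbours, so their separate values are uncertain.

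GIMAP genes, which encode GTPases of lymphocytes, were called above 0 in 5 of 8, against 5.01% of all genes, with a median of 0.96. Gimap4 had 27.4, 32.6 and 38.2 CPM as lowest, median and highest with aPD1, 13.9, 17.5 and 27.1 with aPD1 + aGMCSF, 10.3, 15.1 and 20.9 with aPD1 + aIL2RB, and 12.5, 14.5 and 27.05 with both. No tumor given a blocking antibody reached the aPD1 range. The interaction of Gimap4 was 0.89 ± 0.18 (adjusted p = 0.00392, edgeR), at 0.95 in the first set and 0.79 in the second. Of 11 B cell and immunoglobulin genes 2 were called above 0, and 1 without each of aPD1 replicates 3 and 4 and aPD1 + aGMCSF + aIL2RB replicates 1 and 2. Cd22, an inhibitory receptor of B cells, had 1.83 ± 0.41 (adjusted p = 0.00758), and the immunoglobulin kappa constant gene Igkc 2.58 ± 0.76 (adjusted p = 0.0314). Of 12 neutrophil genes 1 was called above 0 and 1 below, against 5.01% and 3.01% of all genes, and 3 were above 0 without aPD1 + aIL2RB replicate 9. Csf3r, the G-CSF receptor of neutrophils, had 1.54 ± 0.34 (adjusted p = 0.0069), and the metalloproteinase Mmp9 in the same list had -0.89 ± 0.21 (adjusted p = 0.00996).

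In the 500 genes with an interaction below 0 the sum of the single changes was above 0 and the combined change lay below that sum. Kcne3, a regulatory subunit of potassium channels, had the largest of the called interactions below 0 under the naming rule. It had 1.43, 1.67 and 3.05 CPM as lowest, median and highest with aPD1, 3.54, 5.27 and 7.14 with aPD1 + aGMCSF, 4.23, 6.65 and 9.63 with aPD1 + aIL2RB, and 2.56, 6.77 and 8.35 with both. Only aPD1 + aGMCSF + aIL2RB replicate 1 fell within the aPD1 range. The single changes of Kcne3 were 1.48 and 1.85, the combined change was 1.77 against a sum of 3.32, and the interaction was -1.55 ± 0.28 (adjusted p = 0.00163, edgeR). Ip6k3, an inositol hexakisphosphate kinase, had -1.25 ± 0.31 (adjusted p = 0.0134), Acpp, a phosphatase, -1.14 ± 0.28 (adjusted p = 0.0117), and the potassium channel Kcnj8 -1.10 ± 0.27 (adjusted p = 0.0111).

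Of 24 glycolysis and hypoxia genes 6 were called below 0, against 3.01% of all genes, and 0 above, and the median was -0.24. Ddit4, a stress-induced inhibitor of mTORC1, had 16.1, 22.7 and 33.2 CPM as lowest, median and highest with aPD1, 34.9, 49.8 and 56.3 with aPD1 + aGMCSF, 37.6, 47.2 and 57.3 with aPD1 + aIL2RB, and 30.6, 45.8 and 57.9 with both. Only aPD1 + aGMCSF + aIL2RB replicate 1 fell within the aPD1 range. The single changes of Ddit4 were 0.98 and 0.95, the combined change was 0.90 and the interaction was -1.03 ± 0.18 (adjusted p = 0.00137, edgeR). The angiogenic factor Vegfa had -0.47 ± 0.09 (adjusted p = 0.00305), the hypoxia-induced gene Ankrd37 -0.92 ± 0.21 (adjusted p = 0.00802) and the pyruvate dehydrogenase kinase Pdk1 -0.41 ± 0.10 (adjusted p = 0.0136). Egln3 and Bnip3 were the other called members, and the glycolytic enzymes in the list (Aldoa, Gapdh, Pkm, Ldha, Tpi1 and others) were not called. The count was 4 to 8 when each tumor was left out, and 9 with scaling by library size alone.

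The promoters of Ddit4 (chr10:59951771-59952020, minus strand) and Ankrd37 (chr8:45999851-46000100, minus strand) are shown in the same way, with capitals marking the core ACGTG of the hypoxia response element on either strand.
Ddit4: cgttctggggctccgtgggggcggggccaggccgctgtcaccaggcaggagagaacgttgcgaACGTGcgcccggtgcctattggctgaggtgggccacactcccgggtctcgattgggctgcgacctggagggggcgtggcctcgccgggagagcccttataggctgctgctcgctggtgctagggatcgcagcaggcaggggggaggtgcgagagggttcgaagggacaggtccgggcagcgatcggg
Ankrd37: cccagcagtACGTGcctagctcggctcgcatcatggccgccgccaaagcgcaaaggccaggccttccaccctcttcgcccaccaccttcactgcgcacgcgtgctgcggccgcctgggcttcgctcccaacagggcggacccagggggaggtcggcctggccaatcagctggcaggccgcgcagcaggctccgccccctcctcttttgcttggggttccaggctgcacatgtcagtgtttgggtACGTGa
This short core occurred in 16 of the 23 glycolysis and hypoxia genes with a window (69.6%), in 5 of the 6 called (83.3%), in 32.4% of genes below 0, in 21.5% of genes above 0 and in 28.3% of all. Of the called members, Pdk1 had no match in its windows, and Vegfa had a match only in a second window.

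Some cytoplasmic ribosomal protein genes had small interactions below 0. Of 37 genes 11 were called, against 3.01% of all genes below 0, and the median was -0.22, from a median sum of 0.26 and a median combined change of 0.03. Rpl3 had -0.24 ± 0.06 (adjusted p = 0.0142, edgeR) and Rps7 -0.32 ± 0.08 (adjusted p = 0.0143), and for both the groups overlapped. Of the list 0 were called in the first set and 25 in the second, and 19 with scaling by library size alone. Leaving out 1 tumor moved the count by more than 1.5 times for 26 of the 37 tumors, from 4 without aPD1 replicate 4 to 23 without aPD1 replicate 3. Of 20 integrated stress response genes 2 were below 0, Nupr1 (-0.67 ± 0.13, adjusted p = 0.00262) and Ddit3 (-0.53 ± 0.17, adjusted p = 0.0467), and of 23 cholesterol and fatty acid synthesis genes 1, the regulator Srebf2 (-0.32 ± 0.07, adjusted p = 0.00798). The share of the synthesis genes was 4.35%, near the 3.01% of all genes. The stress response count was 1 in 27 of the 37 fits that left out a tumor, and the synthesis count was 7 without aPD1 replicate 2, 4 without aPD1 + aIL2RB replicate 9 and 2 without aPD1 replicates 1 or 3, aPD1 + aIL2RB replicate 3 or aPD1 + aGMCSF + aIL2RB replicate 2. Of 28 cell cycle genes 0 were called (edgeR), with a median of -0.04.

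Stromal genes moved in both directions. Of 22 fibroblast and matrix genes 5 were above 0 and 2 below, against 5.01% and 3.01% of all genes. The count above 0 was 2 without aPD1 replicate 4 and 8 without aPD1 replicate 2 or aPD1 + aIL2RB replicate 9. Dcn, the matrix proteoglycan decorin, had 325, 448 and 570.0 CPM as lowest, median and highest with aPD1, 616, 642 and 703 with aPD1 + aGMCSF, 722, 875 and 1007 with aPD1 + aIL2RB, and 772, 819 and 911 with both. No tumor given a blocking antibody reached down to the highest aPD1 tumor. The interaction of Dcn was -0.57 ± 0.10 (adjusted p = 0.00153, edgeR). Acta2, the smooth muscle actin of contractile fibroblasts, had 1.79 ± 0.37 (adjusted p = 0.00415) and Postn, a matrix protein, 0.85 ± 0.20 (adjusted p = 0.00933). Of 17 endothelial genes 0 were called (edgeR), with a median of 0.30.

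Summed levels of markers of tissue next to the tumor overlapped between the groups, and their differences were not tested. The summed level of 18 skeletal muscle genes was 18.7 to 1281 CPM (median 235) with aPD1, 19.6 to 370 (median 52.6) with aPD1 + aGMCSF, 23.4 to 191.5 (median 75.3) with aPD1 + aIL2RB and 19.4 to 345 (median 110.1) with both. Their median interaction was 2.50, with 1 called (against 5.01% of all genes), the muscle filament gene Des (2.25 ± 0.71, adjusted p = 0.044, edgeR), whose call was lost in 17 of the 37 fits that left out a tumor. Without aPD1 replicate 3, the tumor with 1281 CPM, the median was 1.475 and Des had 1.32. Without aPD1 replicate 2, 2 muscle genes were called. The summed level of 11 adipocyte genes was 43.2 to 153 CPM (median 132.7) with aPD1 and 54.1 to 133 in the other groups (medians 69.9 with aGMCSF, 69.5 with aIL2RB and 70.95 with both), with 2 called against 5.01%, the adipogenic regulator Pparg (1.58) and Car3 (2.07), and 1 called in 15 of the 37 fits that left out a tumor. The 6 keratinocyte and 5 erythroid genes had 0 called (edgeR). The part of these tissues in the results above was not tested beyond a fit with the muscle level. With that level as a covariate, 660 genes were above 0 and 428 below.

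Both sets gave the same direction for nearly all called genes. In the first set alone 340 genes (2.05%) had an interaction, 236 above and 104 below 0, and in the second 1132 (6.82%), 616 above and 516 below. Of the 831 genes above 0 in all tumors, 830 were above 0 in the first set and 827 in the second, and of the 500 below 0, 500 and 499 were below. These sets are the tumors from which the 1331 genes were called. Irf7, Mx1, Siglec1, Acta2 and Ifit1bl1 were not called in the first set alone and Gimap4, Ddit4 and Cfb were not called in the second set alone, while each was called in the other alternatives. The difference of the interaction between the sets was called in 0 genes (edgeR), with 2090 at an unadjusted p under 0.05, and in 10 without aPD1 replicate 1, 9 without aPD1 + aGMCSF replicate 6, 4 without aPD1 + aIL2RB replicate 8 and 2 without aPD1 replicate 2.

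Between the sets, a split known from these same data, the effect of GM-CSF blockade in tumors given aIL2RB did differ. It was called in 0 genes (0%) in the first set and in 625 (3.77%) in the second, and the difference between the sets was called in 301 genes (1.81%), 55 above and 246 below 0. Of 20 MHC class I and peptide loading genes 16 were lower in the second set, against 1.84% of all genes, and 15 had a set difference below 0, against 1.48%. Their median effect was 0.17 in the first set and -0.42 in the second. The median for MHC class II was 0.45 and -1.11, with 8 of 12 lower in the second set. For the antiviral genes it was 0.23 and 0.03, with 0 of 30 called in the second set (edgeR).

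Cxcl9 shows the difference by tumor. In the first set the aPD1 + aIL2RB tumors had 42.1 to 194 CPM and those given both antibodies 57.5 to 401, and in the second set they had 76.2 to 331 and 9.94 to 78.2. The effect of aGMCSF on Cxcl9 was 0.72 in the first set and -2.10 (adjusted p = 0.014, edgeR) in the second. These counts rested on single tumors. The 625 genes of the second set became 3 without aPD1 + aIL2RB replicate 9, and the 301 became 22. Without aPD1 + aGMCSF + aIL2RB replicate 8 they became 2 and 26, and without its replicate 10 they became 1251 and 810. Counts moved by more than 1.5 times for 9 tumors in the second set and for 17 in the difference. Without aPD1 + aIL2RB replicate 9 the 16 MHC class I and the 8 MHC class II genes lower in the second set became 0 each, and the 15 MHC class I genes with a set difference became 0. The 9 of 12 MHC class II genes with a set difference below 0 numbered 7 to 9 in all 37 fits that left out a tumor, with a median difference of -1.58 to -1.29.

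The combined change against aPD1 differed between the sets in more genes than any single step did. The difference was called in 1514 genes (9.12%, edgeR), with the second set higher in 428 (2.58%) and lower in 1086 (6.54%). Of the 19 T cell receptor genes 16 were lower in the second set, with a median change of -1.63 in the first set and -4.82 in the second. Of 19 macrophage identity genes 14 were lower (medians -0.28 and -1.17), and of 30 antiviral genes 14 (medians -0.11 and -0.94). Of 23 cholesterol and fatty acid synthesis genes 10 were higher (medians -0.18 and 0.23). The 1514 became 642 without aPD1 replicate 4, 659 without aPD1 replicate 2 and 971 without aPD1 replicate 3. The 16 T cell receptor genes became 9 and 10 without aPD1 replicates 2 and 3, the 14 macrophage genes 9 without aPD1 replicate 4, and the 14 antiviral genes 4, 5, 6 and 9 without aPD1 replicates 2, 3 and 6 and aPD1 + aGMCSF + aIL2RB replicate 1. The 10 synthesis genes became 0 without aPD1 replicate 4 and 1 without aPD1 replicate 2, and 5 to 6 without each of 5 other tumors.

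**Figure D5:**
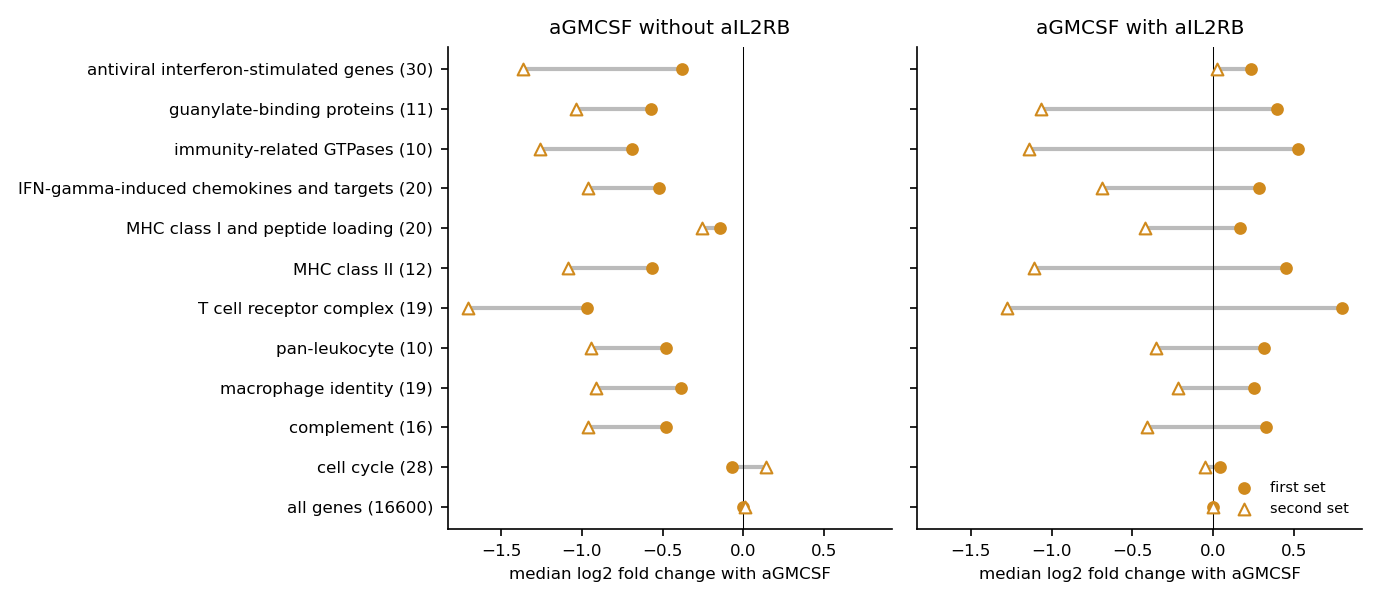
Median log2 fold change with aGMCSF of 11 gene lists and of all genes, without aIL2RB (left) and with aIL2RB (right), in the first set (filled circles) and the second set (open triangles). With aIL2RB the MHC class II median is 0.45 in the first set and -1.11 in the second and the antiviral median 0.23 and 0.03, and without aIL2RB every immune list lies below 0 in both sets.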

How the data were processed

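Members and gene lists were chosen with earlier results of these data known. Per the labels and the study's methods, the authors aligned reads with bowtie 1.2.3 to transcriptomes of the Collaborative Cross founder strains (mm10/GRCm38) and used gbrs to obtain expected counts, adding up the haplotypes of each gene. The deposited expected counts are not normalized, hold 26811 genes (26629 with a symbol in GENCODE vM21) and are not whole in 15.2% of values. They were rounded here. Genes were kept by filterByExpr (minimum count 10, minimum total 15) over the 4 groups, which left 16600. Libraries were scaled by TMM, and group means were fitted over 37 tumors with the quasi-likelihood test of edgeR 4.0.16 (R 4.3.3), adjusted by Benjamini-Hochberg over all kept genes at 0.05. Models with 8 means (4 groups in 2 sets) gave the interaction and simple effects within each set. Level is CPM with TMM-scaled libraries. The error beside a fold change is an approximate standard error, the absolute log2 value divided by the square root of the test's F value. Lists were not tested: counts of called members are read against the share called over all genes. Total counts of 7155486 to 24101674 per tumor limit precision for genes of low counts, and intervals cover the spread between tumors.

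Named genes were the 12 of largest interaction in each direction among called genes with a mean log2 CPM of at least 1, 7 genes fixed by name, and up to 4 called members of smallest p in each of 44 lists, some of which are not printed. Other list members were named after their values were seen. Alternatives were DESeq2 1.42.0, limma 3.58.1 on a linear scale, other scalings and filters, the isotype tumors in the fit, set and replicate terms, ribosomal RNA and muscle covariates, and leaving out each tumor. The script was tested on simulated data. Figures used Python 3.11.15 and matplotlib 3.10.9. Promoter windows and motifs were read from RefSeq sequence (GRCm38.p6) for 11309 tested genes matched by symbol.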

Additional observations from a re-analysis of the deposited data

Results flagged for a closer look

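In groups of 4 to 10 tumors, 8 of 222 tests found a tumor whose log2 CPM lay apart from the rest of its group, and chance gives about 1 in 20. The groups given aIL2RB hold 11 tumors each and were not covered by these tests. Among aPD1 tumors, Kcne3 was high in replicate 2 (1.66) and Ccdc85b low in replicate 3 (0.97). Among aPD1 + aGMCSF tumors, Oasl1 (2.97) and Naaa (5.22) were low in replicate 5, Tlr8 (3.90) and Cfb (5.11) were low in replicate 8, and in replicate 4 Fabp5 was low (3.80) and Gimap4 high (4.77).

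Simple effects and the combined change differed between the first and the second set by the test of the difference itself. The split into sets was known from these same data. The change with both antibodies against aPD1 differed in 1514 genes. GM-CSF blockade with aIL2RB differed in 301 genes, IL2RB blockade with aGMCSF in 119, IL2RB blockade without aGMCSF in 19 and GM-CSF blockade without aIL2RB in 1. Without aPD1 + aIL2RB replicate 9 the 301 became 22.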

How the results depend on the processing

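The 1331 calls, chosen in these same tumors, kept their sign in every alternative in which they were tested except within single sets, where 1330 and 1326 of them kept it in the first and the second set. Genes above 0 (831) numbered 475 with replicate number as a block, 1249 on a linear scale with limma and 236 in the first set alone. Genes below 0 (500) numbered 104 in the first set alone and 877 as the mean of both sets. Leaving out each tumor gave 350 to 1143 above 0 and 164 to 692 below 0. GM-CSF blockade with aIL2RB (0) gave 2 genes with DESeq2 and 1 with each of the muscle covariate, the filter of 10 counts in every tumor, all 42 tumors and a set term, and 0 to 1 when a tumor was left out. IL2RB blockade with aGMCSF (329) gave 584 with DESeq2, 840 with a set term, 978 with the replicate block and 184 to 756 when a tumor was left out. GM-CSF blockade without aIL2RB gave 1130 to 2932 and IL2RB blockade without aGMCSF 3569 to 4933 when a tumor was left out. The difference of the interaction between the sets gave 0 to 10. GM-CSF blockade with aIL2RB in the second set (625) gave 309 with library size alone, 410 with a total of at least 5 counts and 2 to 1251 when a tumor was left out, and its set difference (301) gave 22 to 810. The set difference of the combined change (1514) gave 642 to 2081 when a tumor was left out. The cause was not tested. The ribosomal RNA and muscle covariates, and every alternative to the effects within sets, were chosen after seeing the data.

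Cxcl9 had an interaction of -0.60 in the second set alone, Gzme -2.65 and Gzmg -0.50, against values above 0 in all tumors, and Spp1, not called, had 0.041 with the muscle covariate and 0.082 with the replicate block against -0.14. Of 109 named genes 104 were called, 61 of them in all 37 fits that left out a tumor and 17 also in all alternatives. Counts of genes called with adjusted ribosomal RNA share were 586 and 343. For deviations from the group means, the median correlation over 47 same-numbered pairs was 0.05, and 12 pairs exceeded 0.1. It was 0.05 over 217 pairs of other numbers in the same set and -0.06 over 241 such pairs across the sets. These values do not settle whether the number pairs tumors, and the block is only an alternative.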
